A study of Homo sapiens with 16 samples.

Results

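The luminal transcription factors of the breast were followed in SUM-225 cells, a human breast cancer line with amplified and overexpressed HER2 that is usually classed as estrogen receptor negative. The 9 genes GATA3, FOXA1, ESR1, PGR, ELF3, ELF5, EHF, SPDEF and TFAP2C were chosen by name, and every array probe carrying one of these symbols was taken. They have 10 of the 24526 probes and 9 of the 18631 gene symbols, with 2 probes for ELF5 and 1 for each other gene. All cultures received CP724,714, a small molecule inhibitor of the HER2 kinase, at 1 µM in Ham's F-12 medium with 5% fetal bovine serum, insulin at 5 µg/ml and hydrocortisone at 1 µg/mL. RNA was taken at 3 h intervals between 0 and 45 h, each time from a culture of its own, and 1 bead array was hybridised per time point, 16 in all. No time point was replicated and untreated cultures were not analysed here, so an effect of the inhibitor and an effect of hours in culture cannot be told apart.

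The mammary duct has an inner luminal and an outer basal epithelial layer, and the luminal layer holds cells that sense hormones and cells that form the milk-producing alveoli. In hormone-sensing cells FOXA1 is a pioneer factor that opens chromatin, GATA3 is a zinc finger factor that maintains the luminal fate, ESR1 encodes the alpha form of the estrogen receptor, and PGR, the progesterone receptor gene, is one of its classical targets. ELF5 directs alveolar cells and milk genes, ELF3, EHF and SPDEF are further ETS factors restricted mainly to epithelium, and TFAP2C encodes AP-2 gamma, a regulator of luminal genes that include ESR1 and ERBB2.

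The promoters of the 3 ETS genes described at most length below are shown because ELF3 had the widest course of the 9 genes, and because ELF5 and EHF, which neighbour each other on chromosome 11 with no protein-coding gene between them, hold letters of the FOXA1 motif. Each run is the 250 bases before a RefSeq transcript start in build GRCh38.p14, and capitals mark matches on either strand to GATAA (GATA factors), TGTTTAC (FOXA factors) or TATAAA (the TATA box). The ELF3 window lies at chr1:202010337-202010586 on the plus strand, the ELF5 window at chr11:34511725-34511974 on the minus strand, and the EHF window, the second of its 2, at chr11:34632316-34632565 on the plus strand.
ELF3: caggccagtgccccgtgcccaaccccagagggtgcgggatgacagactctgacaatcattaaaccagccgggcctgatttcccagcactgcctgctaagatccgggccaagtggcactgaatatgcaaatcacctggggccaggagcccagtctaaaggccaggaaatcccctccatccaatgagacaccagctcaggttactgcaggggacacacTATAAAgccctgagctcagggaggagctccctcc
ELF5: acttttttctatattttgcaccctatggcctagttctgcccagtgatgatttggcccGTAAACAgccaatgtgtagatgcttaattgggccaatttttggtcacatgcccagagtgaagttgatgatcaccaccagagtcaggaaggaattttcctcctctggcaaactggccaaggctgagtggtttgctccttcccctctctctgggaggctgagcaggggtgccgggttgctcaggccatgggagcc
EHF: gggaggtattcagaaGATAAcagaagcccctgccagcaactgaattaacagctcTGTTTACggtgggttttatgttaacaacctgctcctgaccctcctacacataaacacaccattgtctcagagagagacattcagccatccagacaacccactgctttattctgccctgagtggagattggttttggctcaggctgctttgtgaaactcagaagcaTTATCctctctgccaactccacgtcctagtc

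The RefSeq table held 21 such windows for 8 of the 9 genes. TGTTTAC stood in 2 of the 21, the ELF5 and EHF windows printed above, against 2.98% of all 35116 windows. GATAA stood in 2 of the 21 (20.4% of all windows), 1 of EHF and 1 of GATA3, and TATAAA, added after the sequences were seen, in 2 of the 21 (10.7%), 1 of ELF3 and 1 of GATA3. The AP-2 letters GCCNNNGGC were found in 5 windows of GATA3 and PGR (19.8% of all), of which those of PGR overlap and hold the same match. The ETS letters GGAAGT were found in 2 windows of GATA3 and ESR1 (19.5%), while the palindromic estrogen response element was in none of the 21 and in 0.0399% of all. These matches are descriptions of the letters in these windows and say nothing of binding.

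The arrays were of similar depth, with median signals from 242 to 384 and between 14110 and 15073 probes detected, where detected means a detection p under 0.05 against the negative control probes. Of 10 luminal markers 10 were detected on all 16 arrays, against 50.3% of all probes. The same held for ERBB2, which encodes HER2, and its amplified neighbour GRB7. Detection alone does not establish a cell type. Of 8 basal or myoepithelial markers, 4 were also detected on all 16 arrays: KRT5, KRT17, ACTA2 and OXTR. Raw signals reached 20362 for KRT17 and 8264 for KRT5. KRT14 was detected on 3 arrays, MYLK on 6, and TP63 and CNN1 on none. The summed normalized signal of these 8 probes was 26532 at 0 h and 5739 at 45 h, between 5333 at 42 h and 26652 at 6 h. That of the 10 luminal markers lay between 272421 and 315803. Raw signals near the top of the scale weigh most in the luminal sum (KRT19 66523 to 71696, CD24 67621 to 72271). Other markers in it varied more widely, such as MUC1 (15607 to 57975). Whether the bright markers kept the sum level was not tested. The luminal sum also adds markers that rose, such as MUC1 and CLDN3, to markers that fell, KRT8 and KRT18 (values below). The part of the basal marker fall in the results below was not tested, and in bulk RNA fewer cells of a type and less RNA per cell cannot be told apart. The arrays were also grouped into runs of 4, from 0 to 9, 12 to 21, 24 to 33 and 36 to 45 h. Root mean square steps over the tested probes were 0.42, 0.36 and 0.33 log2 units at the borders. They were 0.26 to 0.30 within the runs from 12 to 42 h. Steps of 0.35 to 0.40 also occurred within the first run and 0.42 between 42 and 45 h, so the steps alone do not mark off the runs. The labels name no batch, so the runs and the hours cannot be told apart.

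Of the 10 probes, 9 were detected on all 16 arrays (90.0%, against 50.3% of all probes). The probe never detected was that of PGR (28.9% of all probes were never detected). Its signal lay between 145 and 195, with the highest value at 33 h, and its detection p was between 0.232 and 0.964. PGR was therefore not above background at any hour, and no change was computed for it.

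Over the 45 h, ELF3 rose several-fold, ESR1 rose from the edge of detection to about double its start, both ELF5 probes were highest at 9 h with no linear trend, and GATA3, FOXA1, TFAP2C, EHF and SPDEF kept within narrower ranges. A cubic course in hours was fitted to each of 16110 probes detected on at least 3 arrays. Time dependence (F-test of limma, Benjamini-Hochberg adjusted p under 0.05) was called for 5 of the 9 member probes (55.6%, against 51.3% of all tested): ELF3, ESR1, FOXA1, EHF and SPDEF. A linear trend, the first-order term of that fit given as log2 change over 45 h, was called for 6 of 9 (66.7%, against 47.7%), of which ELF3, ESR1, GATA3, FOXA1 and TFAP2C rose (5 of 9, against 26% of all tested) and EHF fell (1 of 9, against 21.7%). Departure from a straight line was called for ELF3, EHF and SPDEF (3 of 9, against 19.3%). The shares for time dependence stood near the background, and the median linear change of the 9 probes was 0.23, against 0.05 over all tested.

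**Figure D1:**
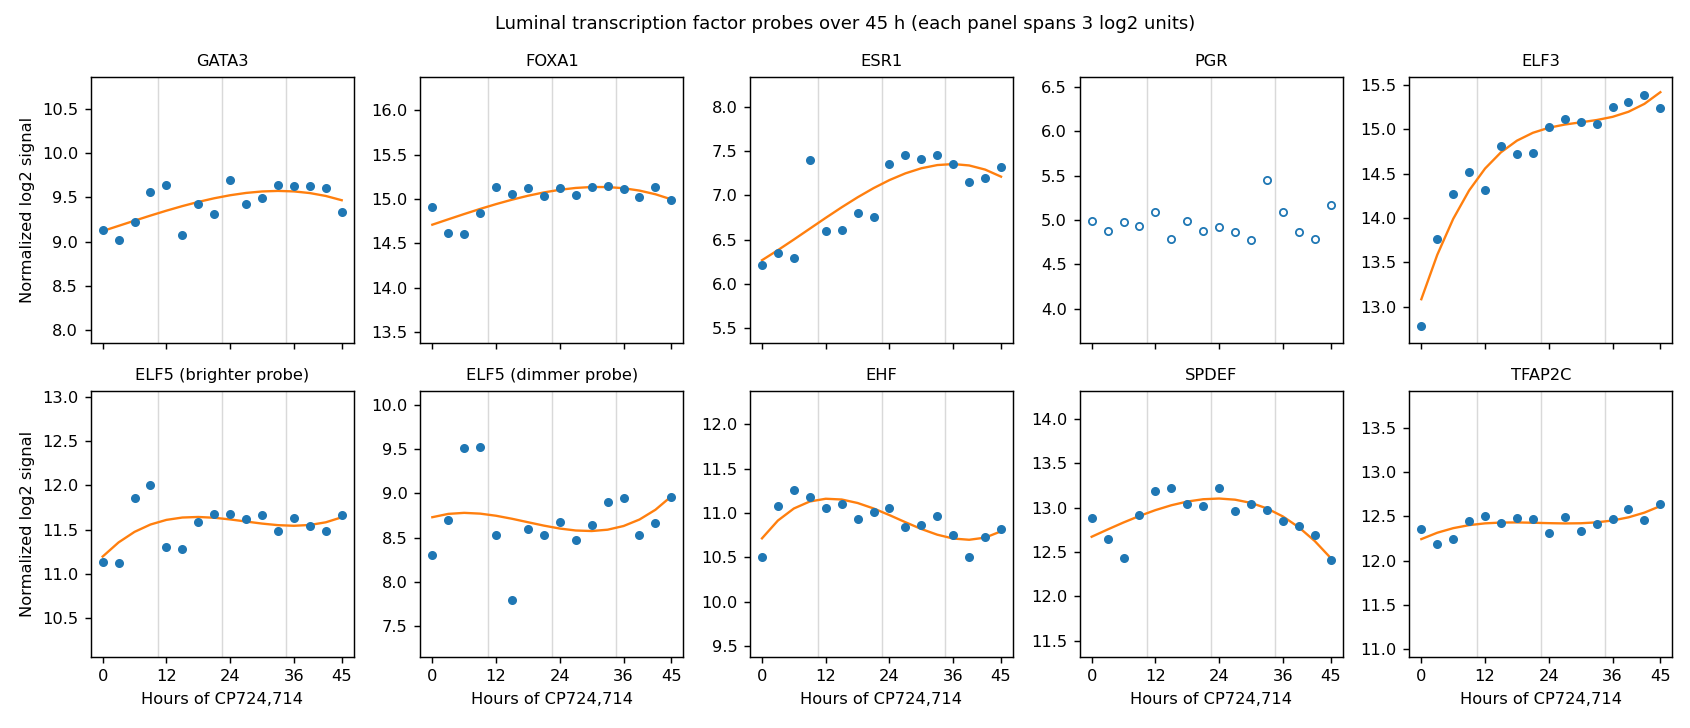
Normalized log2 signal (vertical axis) of each of the 10 probes against hours of CP724,714 (horizontal axis). Filled points are arrays with a detection p under 0.05 and open points those without, lines are the fitted cubic courses, grey verticals separate the runs of 4 arrays, and every panel spans 3 log2 units. ELF3 climbs from 12.79 to 15.24, ESR1 from 6.21 to 7.32, and all 16 points of PGR are open.

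ELF3, an ETS factor of epithelial differentiation, was lowest of all its 16 values at 0 h, with a normalized log2 signal of 12.79. It stood at 13.77 at 3 h, 14.27 at 6 h and 14.52 at 9 h, dipped to 14.32 at 12 h, and was 14.81, 14.73 and 14.73 at 15, 18 and 21 h. The rise was steepest at the start: the step of 0.98 from 0 to 3 h was matched in size and direction by 0.73% of tested probes, and 70.6% of the difference between 0 and 45 h was present by 9 h. From 24 h on it lay between 15.03 and 15.39, the highest value coming at 42 h, and ended at 15.24. All 15 later arrays were at least 1.7-fold above 0 h, and the 45 h array was 5.47-fold above. The study's methods used 1.7-fold to select genes in another cell line, before a further fold criterion on ratios between lines.

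The linear change of ELF3 was 1.85 ± 0.13 (SE, limma, adjusted p = 1.54e-09), and the curvature of its course was also called (adjusted p = 5.47e-04). The call held on leaving out any 1 array. The means of the 4 runs were 13.83 ± 0.77, 14.65 ± 0.22, 15.07 ± 0.04 and 15.30 ± 0.07 (SD over 4 arrays), each above the one before. With the run entered as a factor the change was 2.61 ± 0.91 and the adjusted p was 0.182. The raw signal reached 69.1% of the highest signal on its array.

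ESR1 was the dimmest of the detected members. Its normalized log2 values were 6.21, 6.35 and 6.30 at 0, 3 and 6 h, where the detection p was 0.0235, 0.0222 and 0.0396, while on the other 13 arrays it was under 0.01. A single array at 9 h stood at 7.40, a step of 1.10 matched by 0.71% of tested probes, before 6.60 at 12 h. From 12 to 21 h the values lay between 6.60 and 6.80, and from 24 to 45 h between 7.15 and 7.46, on either side of a border between runs. The share of all tested probes that separate at this border was not computed. Relative to 0 h, 9 of the 15 later arrays were at least 1.7-fold higher, and the 45 h array was 2.16-fold higher.

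The linear change of ESR1 was 1.08 ± 0.23 (SE, limma, adjusted p = 6.05e-04), and 1.25 without the 9 h array. Its size rests on the background correction: without it the change was 0.43, still past the threshold, and no array reached 1.7-fold. When a step between 21 and 24 h was added to the model the linear change was -0.03 (adjusted p = 0.979), and with the run as a factor it was 1.64 ± 0.88 (adjusted p = 0.405).

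**Figure D2:**
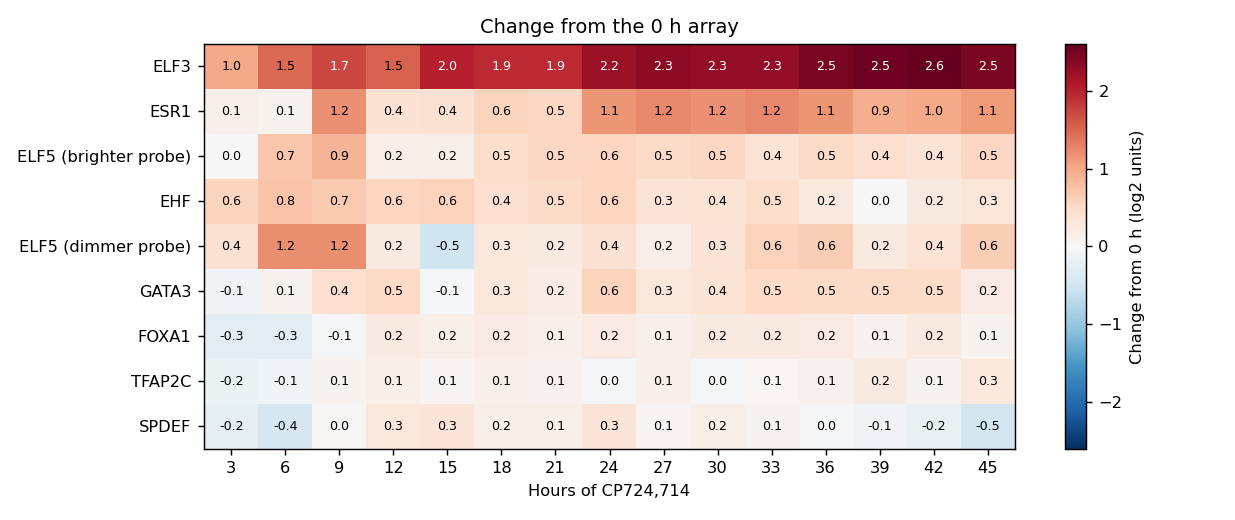
Change from the 0 h array in log2 units (colour and number) for the 9 tested probes (rows, ordered by mean change) at each later harvest (columns, hours of CP724,714). ELF3 and ESR1 are above 0 h at all 15 later harvests, ESR1 by at least 1.7-fold at 9 h and from 24 h on, and both ELF5 probes are highest at 9 h.

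FOXA1 gave a bright probe whose normalized values moved within a narrow band. It stood at 14.90 at 0 h, 14.61 at 3 h and 14.60 at 6 h, then 14.84 at 9 h. From 12 to 45 h it lay between 14.99 and 15.14, all 12 of these arrays above 0 h. The highest array, at 33 h, was 1.18-fold above 0 h, and that of 45 h 1.06-fold. The linear change was 0.34 ± 0.09 (SE, limma, adjusted p = 0.0044), a fitted slope equal to 1.26-fold over 45 h. Median scaling in place of quantile normalization gave 0.18 (adjusted p = 0.219) and cyclic loess 0.25 (adjusted p = 0.0664), and on the 12 arrays from 12 to 45 h alone it was -0.05. The 4 arrays from 0 to 9 h, the first run, all lay below the other 12, and the share of all tested probes with this order was not computed.

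GATA3 went from 9.13 at 0 h to 9.34 at 45 h, with its lowest value of 9.01 at 3 h and its highest of 9.70 at 24 h. Of the 15 later arrays 13 were above 0 h, those of 3 and 15 h being below. The linear change was 0.40 ± 0.15 (SE, limma, adjusted p = 0.0297), but the F-test for time dependence did not pass (adjusted p = 0.0710). The linear call was lost without the 0, 3, 6, 36 or 39 h array (adjusted p up to 0.114) and with cyclic loess (adjusted p = 0.0861).

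TFAP2C had the narrowest course, between 12.19 at 3 h and 12.64 at 45 h, from 12.36 at 0 h. The linear change was 0.23 ± 0.08 (SE, limma, adjusted p = 0.0301), with no call for time dependence (adjusted p = 0.0763). It was lost without the 3, 6, 39 or 45 h array (adjusted p up to 0.106), with median scaling (adjusted p = 0.113) and with cyclic loess (adjusted p = 0.120).

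The other epithelial ETS genes did not follow ELF3 over the whole 45 h, although EHF and both ELF5 probes also rose early. At 6 h EHF stood 0.75, the brighter ELF5 probe 0.72 and the dimmer 1.20 log2 units above 0 h. The change at 6 h was 1.48 for ELF3 and -0.45 for SPDEF. EHF, a close relative of ELF3 and ELF5, stood at 10.51 at 0 h, 11.08 at 3 h and 11.26 at 6 h, its highest value, and then declined to 10.50 at 39 h and 10.81 at 45 h. All later arrays but that of 39 h were above 0 h. The negative linear change of -0.31 ± 0.12 (SE, limma, adjusted p = 0.0371) therefore describes the decline after 6 h and not a fall below the start, and the departure from a straight line was called (adjusted p = 0.0313). Without the 0 h array the linear change was -0.55, and the call was lost without any 1 of 8 other arrays (3, 6, 9, 12, 15, 36, 39 or 42 h, adjusted p up to 0.141) and when a straight line alone was fitted.

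The 2 ELF5 probes shared an early peak. The brighter was at 11.13 and 11.12 at 0 and 3 h, 11.85 at 6 h and 12.01 at 9 h, and 0.71 lower, at 11.30, at 12 h. The dimmer was at 8.31 and 8.70 at 0 and 3 h, 9.51 at 6 h and 9.52 at 9 h, then 8.53 at 12 h and 7.79, its lowest value, at 15 h. At 9 h they stood 1.84-fold and 2.32-fold above 0 h, and at 45 h 1.45-fold and 1.57-fold. The Pearson r between them was 0.70 over the 16 arrays, which they share. Neither had a linear trend (0.21 ± 0.17, adjusted p = 0.327 for the brighter, and 0.00 ± 0.31, adjusted p = 0.998 for the dimmer) or passed the F-test (adjusted p = 0.273 and 0.802). A cubic cannot follow a peak of 2 arrays: with a polynomial of order 5 the adjusted p was 0.166 for the brighter probe and 0.0324 for the dimmer.

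SPDEF, an ETS factor of secretory epithelial cells, rose and fell. It was at 12.88 at 0 h, 12.65 at 3 h and 12.44 at 6 h, reached 13.22 at 15 h and 13.23 at 24 h, and declined from 12.97 at 33 h to 12.41 at 45 h, its lowest value. It had no linear trend (-0.12 ± 0.12, limma, adjusted p = 0.437), but its departure from a straight line was called (adjusted p = 0.00609), as was time dependence (adjusted p = 0.00284). On the arrays from 12 to 45 h alone the linear change was -0.86. That window was chosen after seeing the data. It starts near the highest values (13.19 at 12 h) and ends at the lowest, so it only describes the decline.

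FOXA1, SPDEF and TFAP2C were each lower than at 0 h at both 3 and 6 h and higher at 9 h than at 6 h, a shape held by 18.8% of tested probes. A 1.7-fold difference from 0 h on any later array was reached by 4 of the 9 probes (44.4%, against 50.3%), those of ELF3, ESR1 and ELF5. Entering the run of 4 arrays as a factor left no member probe with a linear trend at an adjusted p under 0.05 (limma, 0 of 9, against 0.9% of all tested), and of the 6 called above FOXA1, GATA3 and EHF turned sign.

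**Figure D3:**
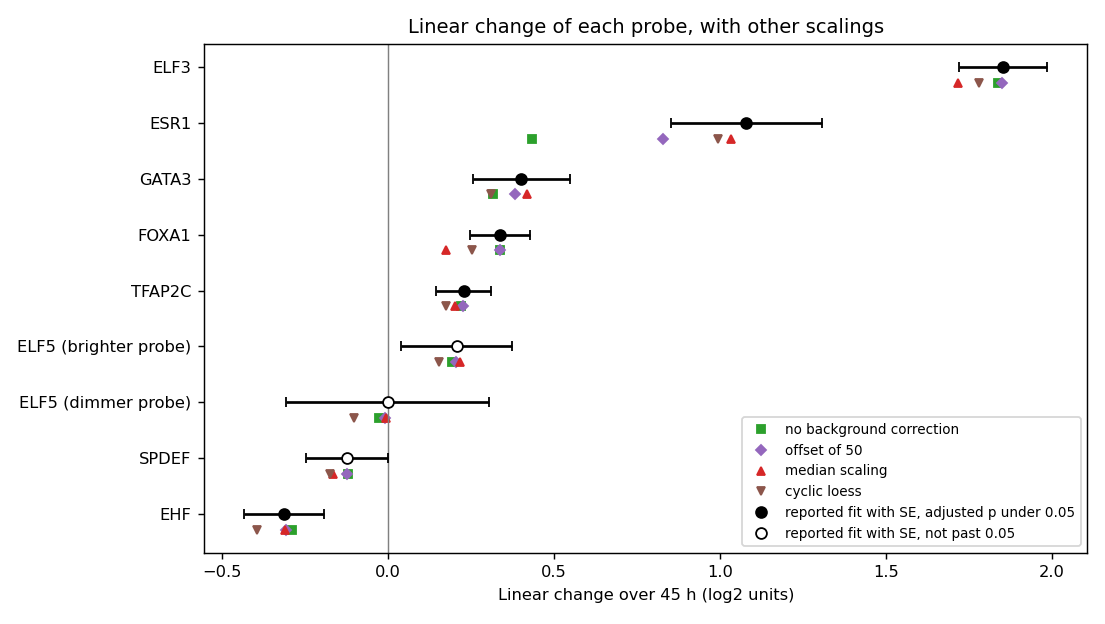
Linear change over 45 h in log2 units (horizontal axis) of the 9 tested probes. Circles with bars are the fitted change and its SE, filled where the adjusted p was under 0.05, and the small symbols give the same value with no background correction, an offset of 50, median scaling and cyclic loess. ELF3 lies between 1.72 and 1.85 throughout, ESR1 drops to 0.43 without background correction, and the other 7 lie between -0.31 and 0.40 in the fit with bars.

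Among the members, the courses most alike over the 16 arrays were those of ESR1 and ELF3 (Pearson r = 0.79) and of GATA3 and ESR1 (r = 0.72). EHF and TFAP2C had an r of -0.44, and SPDEF and the dimmer ELF5 probe -0.55. Over all probes detected on every array, ELF3 was most like MGC17330, ZNF277 and YPEL2 (r = 0.98 for each), and among the genes most like ESR1 were AKR1A1, an aldehyde reductase, and HOP (r = 0.93 for each). FOXA1 was most like ZNF274, UBQLN2 and UBE3B (r = 0.96, 0.94 and 0.94), and GATA3 was most like CLK3, OSBPL7 and USP52 (r = 0.86, 0.85 and 0.84).

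Among the remaining members, the genes most like SPDEF included SEMA4B and GAS2L1 (r = 0.89 and 0.85). TFAP2C was most like KREMEN1, FUT8 and PHF23 (r = 0.92, 0.88 and 0.88). EHF was most like CCDC77, MMS19L and TINP1 (r = 0.88, 0.86 and 0.86), and the brighter ELF5 probe was most like NDRG4, ADAL and SLA/LP (r = 0.88, 0.88 and 0.86). These correlations are descriptions over arrays that all probes share, in which hours and runs of arrays are shared too.

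Genes of the same families, taken as the brightest probe of each, were on the array for 24 relatives, of which 17 were tested, 9 rose, 3 fell and 5 did not pass, with a median linear change of 0.48 against 0.05 over all tested probes. A linear trend was called for 70.6% of the 17, against 47.7% of all tested probes. The steroid receptors NR3C2, which binds mineralocorticoids, and NR3C1, the glucocorticoid receptor, rose by 1.29 ± 0.12 and 1.00 ± 0.14 (SE). FOXA3 rose by 0.99 ± 0.19, GATA2 by 0.97 ± 0.21 and TFAP2B by 0.91 ± 0.14. Of other ETS genes ETS2 rose by 1.03 ± 0.15 and ELF1 by 0.48 ± 0.09, while ELF4 changed by -0.78 ± 0.11, ETS1 by -0.64 ± 0.25 and ERF by -0.47 ± 0.14. ESR2, the gene of the other estrogen receptor, was never detected. NR3C1, FOXA3, GATA2, TFAP2B, ELF1, ERF and ESR2 were singled out here after their values were seen.

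Of 22 genes known as estrogen receptor targets on the array 19 were tested, 7 rose, 4 fell and 8 did not pass, with a median of 0.14. The share called was 57.9%, against 47.7% of all tested probes. TPD52L1 rose by 0.87 ± 0.09, and AGR3 by 1.00 ± 0.29 although it was detected on only 3 arrays. The secreted trefoil peptides TFF1 and TFF3, both standard markers of receptor activity, changed by -1.30 ± 0.22 and -1.30 ± 0.09, TFF1 being detected on 10 arrays. Of 13 receptor coregulators tested, 3 rose, 2 fell and 8 did not pass (median 0.00), a share called of 38.5% that stood below the 47.7%. The coactivator NCOA1 rose by 0.77 ± 0.11 and the corepressor NCOR1 by 0.41 ± 0.15, while PELP1 changed by -0.79 ± 0.13 and TLE3 by -0.58 ± 0.21.

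Of 16 alveolar and milk genes on the array, a programme that ELF5 is known to direct, 7 had no probe that was ever detected. Counted by probe and not by gene, 28.9% of all probes on the array were never detected. Among the 7 were the caseins CSN1S1, CSN2 and CSN3 and the milk protein gene LALBA. Of the 9 tested, 4 rose, 2 fell and 3 did not pass (median 0.21), a share called of 66.7%, against 47.7% of all tested probes. STAT5B and FOLR1 rose by 0.85 ± 0.22 and 1.00 ± 0.11, while XDH, an enzyme of milk fat secretion, changed by -1.34 ± 0.22 and the prolactin receptor gene PRLR dropped by 1.00 ± 0.30, detected on 11 and 6 arrays.

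Of 14 luminal cytokeratins and surface markers tested 5 rose, 2 fell and 7 did not pass (median -0.04), a share called of 50% that stood near the 47.7% of all tested probes. The mucin MUC1 rose by 1.46 ± 0.12 and CLDN3 by 1.02 ± 0.09, while the paired luminal keratins KRT18 and KRT8 changed by -0.74 ± 0.10 and -0.68 ± 0.10. Of 15 basal and myoepithelial genes on the array 10 were tested. Of these 9 fell (90%, against 21.7% of all tested probes) and none rose (median -1.68). The falls were led by KRT17 at -3.20 ± 0.10 and LGALS7 at -2.84 ± 0.17. The lists were chosen with earlier results of these data known, so this share is a description only. Of 24 other epithelial transcription factors 11 rose, 1 fell and 12 did not pass (median 0.23), a share called of 50%. Among them ID4, detected on 11 arrays, changed by 2.30 ± 0.31, HEY1, a Notch target, by 1.97 ± 0.18 and CBFB, the partner of RUNX factors, by -0.60 ± 0.09.

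**Figure D4:**
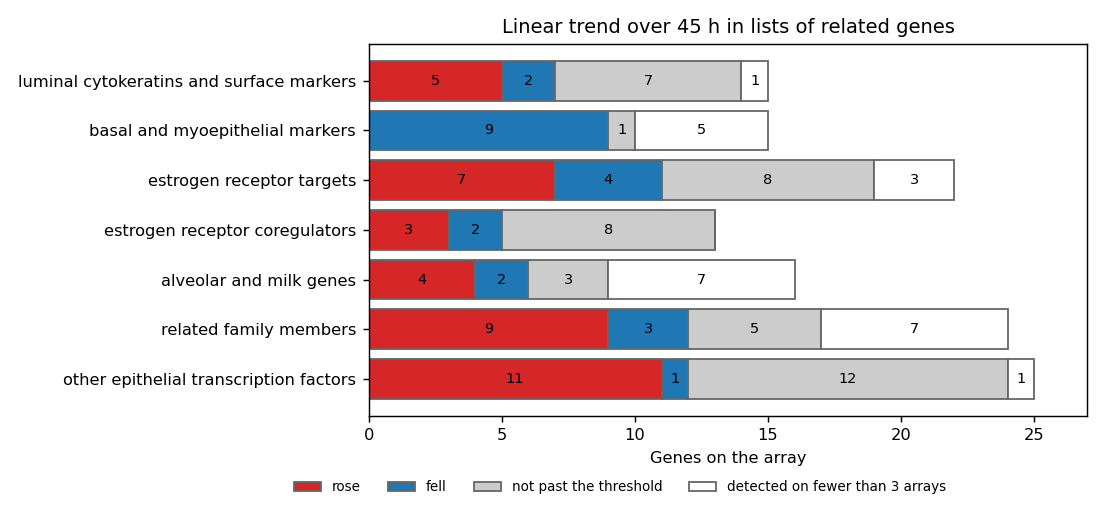
Number of genes on the array (horizontal axis) in each of 7 lists of related genes, split by linear trend over 45 h into those that rose, fell, did not pass the threshold, or were detected on fewer than 3 arrays. Falls outnumber rises only among the basal and myoepithelial markers (9 of 10 tested), and rises outnumber falls in the other 6 lists. Rises also outnumber falls over all tested probes (26% against 21.7%). The lists were chosen with earlier results of these data known.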

How the data were processed

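The deposited table gave a linear signal intensity per probe and array, which the authors had neither background-subtracted nor normalized, and a deposited detection p-value per probe and array. The study's methods name the Illumina human Ref8v2 array and a quantile normalization, which this table precedes, while the labels name no array version. Background was corrected by normexp with negative controls deduced from these p-values, 16 was added, and values were quantile-normalized and log2-transformed (limma 3.58.1, R 4.3.3). The added 16 compresses changes of dim probes. Probes detected on at least 3 arrays (16110) were tested with a cubic in hours (lmFit, eBayes with trend), two-sided, adjusted by Benjamini-Hochberg over all of them. Error came from deviations around each fitted course, since no time point was replicated. It therefore mixes differences between single cultures and arrays with lack of fit of the cubic, and spread between replicate cultures could not be estimated.

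The members and lists were chosen with earlier results of these data known. From each list the pair of largest rises and of largest falls past the threshold was named, and for each member up to 3 genes of most similar course. Some genes that this rule gives, and 1 list, are not reported here. Of 18631 symbols 91.0% matched RefSeq (GRCh38.p14), others were kept as written. The table states no build.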

Additional observations from a re-analysis of the deposited data

How the results depend on the processing

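No paired analysis was possible because no harvest was replicated. The 6 member probes with a linear trend became 3 with cyclic loess, 1 with a step between 21 and 24 h and 0 with the run of 4 arrays as a factor, and ranged from 3 (without the 3 or 39 h array) to 6 when 1 array was left out. On the 12 arrays from 12 to 45 h, a setting chosen after seeing the data, 0 probes departed from a straight line. The linear change turned sign with the step for the brighter ELF5 probe (-0.17) and ESR1 (-0.027), with the run as a factor for EHF (0.77), the dimmer ELF5 probe (2.32), FOXA1 (-0.19) and GATA3 (-0.042), and from 12 to 45 h for the dimmer ELF5 probe (0.78) and FOXA1 (-0.055). Leaving out 1 array moved it between -0.17 and 0.23 for the dimmer ELF5 probe and between -0.27 (without 6 h, adjusted p = 0.0319, limma) and 0.058 (without 45 h) for SPDEF, and turned no other. FOXA1, ESR1 and ELF3 kept their linear call on leaving out any 1 of the 16 arrays. Every member's linear change kept its sign with median scaling, which left 4 linear calls. The signs were also kept with no background correction, an offset of 50 or array weights, which left 6 calls each. With no filter 6 calls were left and with a straight line alone 5, but the single changes were not recorded for these fits. The 5 time-dependent probes numbered between 4 and 7 over the alternatives run. The causes were not tested. ESR1 and both ELF5 probes are limited by signal near the background or by brief change, and PGR by signal within it.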
